A study of Equus caballus with 14 samples.

Results

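The translation initiation, elongation and termination factors are the soluble proteins that load messenger RNA on the ribosome, select the start codon, move the ribosome along the coding sequence and release the finished chain. They were read in gluteus medius muscle of horses with polysaccharide storage myopathy (PSSM), a glycogen storage disease of skeletal muscle. Members were all mouse probes whose annotated gene symbol starts with EIF1 to EIF6, EEF1 or EEF2, or names a release factor (Etf1, Gspt), a cytosolic polyA-binding protein (Pabpc) or a mitochondrial translation factor (Tufm, Tsfm, Gfm, Mtif), together with the equine probe listed for Tsfm. The kinase Eif2ak3 was left out. This gave 72 probes, 71 mouse and 1 equine, out of 24493 on the microarray, for 63 of 12082 genes with a symbol. Of these, 53 probes of 49 genes had values from at least 5 horses and were tested, 13 had values from 1 to 4 horses, and 6 had no value.

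The PSSM group held 7 horses, numbered 5, 12, 32, 38, 42, 44 and 54. The study describes its PSSM horses as adult Norman horses whose muscle fibers contained polysaccharide resistant to amylase. The study lists horse 44 as homozygous for the mutation of GYS1, the muscle glycogen synthase, and horses 12, 32, 38, 42 and 54 as heterozygous. Horse 5 of the labels is not in that listing, so its genotype was not used and its age and histology are not given. The listing holds another homozygous PSSM horse that is not in the labels, and whether it is the same animal is not stated. The control was 1 pool of mRNA from 6 sound horses of wild type genotype. Each PSSM muscle was hybridized against this pool on 2 microarrays with the Cy3 and Cy5 dyes swapped, 14 microarrays in all. The probes are spotted oligonucleotides, and nearly all translation factor probes were designed on mouse transcripts and read horse RNA across species, and their match to the horse transcripts was not tested. The values are log2 ratios of PSSM muscle over control pool, averaged over the microarrays of a horse, and n counts horses. Of the 366 horse values of the tested probes, 326 are the mean of both dyes and 40 come from 1 microarray, in which a dye effect does not average out. Most of these 40 were read with PSSM RNA in Cy3, the orientation in which the median over the factor probes was higher. The effect of this imbalance on the means was not tested. The pool is a single sample, so the spread between control horses enters no error, and ratios give no expression level of a gene. In RNA of whole muscle, fewer cells of a type and less RNA per cell cannot be told apart.

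A cytosolic messenger RNA is bound at its cap by the EIF4 complex, which holds a cap-binding protein, a scaffold and an RNA helicase, and is joined to the small ribosomal subunit through EIF3. EIF2 brings the initiator tRNA as a complex with GTP, and EIF2B, its exchange factor, reloads EIF2 with GTP after each round. Stress kinases phosphorylate EIF2 and thereby block EIF2B, and the mTOR pathway frees the cap-binding protein from its EIF4E-binding repressors. Elongation is carried by EEF1A, which delivers aminoacyl-tRNA, by the EEF1B exchange factor and by EEF2. Skeletal muscle carries 2 forms of EEF1A, of which Eef1a2 is the form of mature fibers. Mitochondria use a separate set of factors of bacterial type.

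Each microarray gave values for 7674 to 17071 probes. In 39 of the 735 translation factor values (5.31%) the pool gave its lowest signal, against 9.16% of all mouse values, and in 3 the ratio was at the lower limit of 0.01 where the file ends. The microarray of horse 54 with PSSM RNA in Cy5 stood apart, with a median log2 ratio of -0.254 over the mouse probes, against -0.066 to 0.073 on the other 13. None of the 8 tested mouse probes of skeletal muscle fiber markers passed the test, and the mean of this list lay between -0.34 and 0.26 over the horses. All 3 tested hepatocyte markers were lower in PSSM muscle, led by Alb, the serum albumin gene, at -4.19 ± 1.08 (SD, n = 7, limma adjusted p = 0.000611), and the mean of the 3 lay between -2.39 and -1.20 over the horses. Their part in the values below was not tested.

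Eif2b1, the alpha subunit of the EIF2B exchange factor through which phosphorylated EIF2 is sensed, was lower in PSSM muscle and Eif3e, a subunit of the EIF3 scaffold, was higher. These 2 were the only translation factor probes that passed the test, and the other 50 mouse probes and the equine probe did not. Passing means an adjusted p below 0.05 in the fit of limma over all 13067 tested mouse probes, in which 0.452% of the probes were called higher and 1.36% lower. The share of translation factor probes called, 1 of 52 in each direction, therefore lay near the background.

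The probe of Eif2b1 (NM_145371) read -0.98 in horse 5, -0.77 in horse 12, -1.0 in horse 32, -0.39 in horse 38, -0.75 in horse 42, -0.32 in horse 44 and -0.69 in horse 54. Every horse lay below the control pool, with horses 38 and 44 nearest to it. The mean log2 ratio was -0.70 ± 0.26 (SD, n = 7), that is 1.62-fold lower in PSSM muscle, with a limma adjusted p of 0.0122 and an exact two-sided sign-flip permutation p of 0.0156, the smallest that 7 horses can give. The mean was -0.64 with PSSM RNA in Cy3 and -0.76 with PSSM RNA in Cy5, and 13 of the 14 single microarrays were below 0. Eif2b1 passed in each dye orientation by itself (adjusted p = 0.00855 with PSSM RNA in Cy3 and 0.00575 in Cy5) and without any 1 horse (adjusted p = 0.0108 to 0.0385), but not in the test that the methods name, which lacks the variance moderation of limma (adjusted p = 0.055).

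The other 4 EIF2B subunits were measured in every horse and none passed the test. They were singled out here after their values were seen, because they belong to the same complex. Eif2b2, the beta subunit, read 0.22, 0.00, 0.82, 0.29, 0.71, 0.52 and 0.34 in horses 5, 12, 32, 38, 42, 44 and 54, with a mean of 0.41 ± 0.29 (SD, n = 7, adjusted p = 0.0883). Its mean was 1.01 with PSSM RNA in Cy3 and -0.18 in Cy5 (dye effect adjusted p = 0.00773). Eif2b4 averaged 0.17 ± 0.32 and Eif2b5, the catalytic subunit, 0.10 ± 0.23 (SD, n = 7 each). Eif2b3 averaged 0.04 ± 0.36, a mean that joined 0.95 with PSSM RNA in Cy3 and -0.88 with PSSM RNA in Cy5. Eif2b4 likewise joined 0.47 in Cy3 and -0.27 in Cy5 (dye effect adjusted p = 0.00951). Eif2b1 was the only one of the 5 subunit probes with a mean below 0 over both dyes, but with PSSM RNA in Cy5 all 5 subunit means were below 0.

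The probe of Eif3e (AK002576) read 0.50, 0.28, 0.30, 0.39, 0.52, 0.55 and 0.47 in horses 5, 12, 32, 38, 42, 44 and 54. All horses were above the control pool and the values lay close together. The mean was 0.43 ± 0.11 (SD, n = 7), 1.35-fold higher in PSSM muscle (limma adjusted p = 0.0176, exact sign-flip permutation p = 0.0156). The call depended on the dye orientation. The mean was 0.66 with PSSM RNA in Cy3 and 0.20 in Cy5 (dye effect adjusted p = 0.019), and with PSSM RNA in Cy5 alone the probe no longer passed (adjusted p = 0.143). It was also lost without horse 38 (0.44, adjusted p = 0.0608) or without horse 42 (0.42, adjusted p = 0.0577). A second Eif3e probe (AK083874) had 1 value in horse 54, at the lower limit of -6.64, and was not tested.

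**Figure D1:**
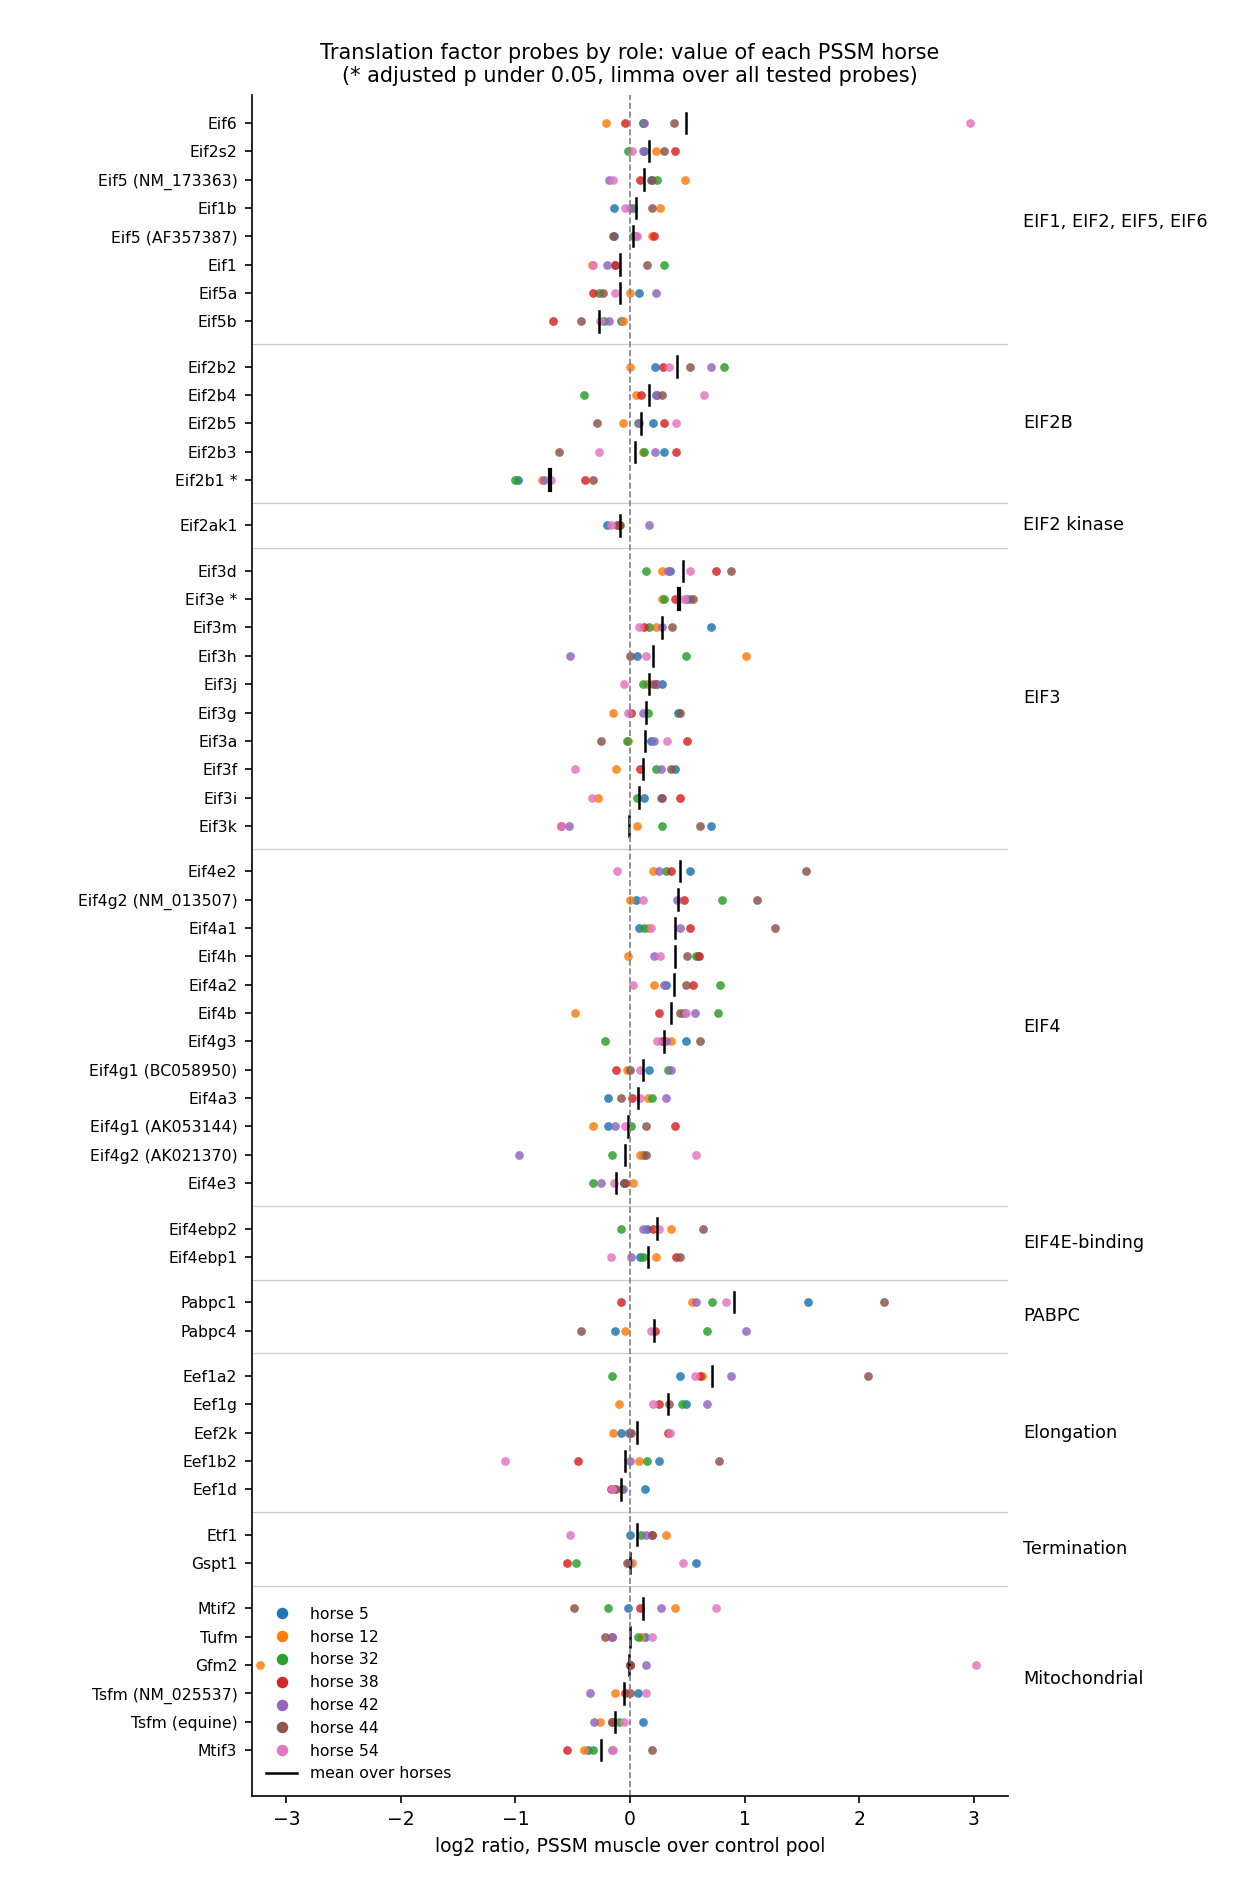
Log2 ratio of PSSM muscle over control pool (x axis) for each of the 53 tested translation factor probes, grouped by role, with a colored point for each PSSM horse, a black bar for the mean, and a star for an adjusted p below 0.05 (limma). Eif2b1 lies left of 0 in all 7 horses and Eif3e right of 0 in all 7, whereas single points of Eif6 (2.97 in horse 54) and Gfm2 (-3.23 in horse 12 and 3.02 in horse 54) lie far from the other horses.

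EIF3 joins the small ribosomal subunit to the messenger RNA. Of 12 EIF3 probes 10 were tested, with a median of 0.15 (range -0.01 to 0.46). Of these 10, 9 had a mean above 0, against 48.1% of all tested mouse probes. Besides Eif3e, 2 probes were above the pool in every horse, which held for 3.93% of all mouse probes. Eif3d, the subunit that can itself bind a cap, read 0.35, 0.28, 0.14, 0.75, 0.33, 0.88 and 0.52 in the same order of horses. It was highest in horses 38 and 44 and lowest in horse 32. Its mean was 0.46 ± 0.27 (SD, n = 7, adjusted p = 0.0568), joined from 0.87 with PSSM RNA in Cy3 and 0.06 in Cy5. Eif3m, a subunit of the scaffold, read 0.71, 0.23, 0.17, 0.12, 0.28, 0.37 and 0.08, with a mean of 0.28 ± 0.21 (SD, n = 7, adjusted p = 0.134). Horse 5 was the highest and horse 54 the lowest. The probe of Eif3b, which encodes a scaffold subunit, had no value.

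The cap-binding group had 12 tested probes of 14, with none called, 9 means above 0 and a median of 0.33 (range -0.12 to 0.44). At an unadjusted p below 0.05, 7 of these probes were higher and none lower, where 8.56% and 10.6% of all mouse probes were. Eif4a2, an RNA helicase of the complex, read 0.31, 0.21, 0.79, 0.55, 0.30, 0.49 and 0.03 in horses 5, 12, 32, 38, 42, 44 and 54, all above the pool, with horse 54 close to it. Its mean was 0.38 ± 0.25 (SD, n = 7, adjusted p = 0.0847), and it was 0.82 with PSSM RNA in Cy3 against -0.06 in Cy5. Its paralog Eif4a1 read 0.08, 0.16, 0.12, 0.52, 0.44, 1.27 and 0.18, where horse 44 stood far above the other horses. The mean was 0.39 ± 0.42 (SD, n = 7, adjusted p = 0.182), and 0.25 without horse 44.

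The scaffold proteins were read by several probes each. For Eif4g2, which starts translation without the cap-binding protein, probe NM_013507 read 0.05, 0.00, 0.80, 0.47, 0.41, 1.11 and 0.11, all above 0 with horse 12 just above it, and averaged 0.42 ± 0.41 (SD, n = 7, adjusted p = 0.154). Its sign turned with the dye, at 0.95 with PSSM RNA in Cy3 and -0.11 in Cy5. Probe AK021370 of the same gene had a value on only 6 microarrays of 6 horses and averaged -0.04 ± 0.52 (SD), so the 2 probes were 0.46 apart. The BC058950 probe of Eif4g1, the main scaffold, read 0.17, -0.03, 0.33, -0.12, 0.36, 0.00 and 0.09, and its AK053144 probe lay between -0.32 and 0.39. They stayed near the pool and averaged 0.11 ± 0.18 (BC058950) and -0.02 ± 0.23 (AK053144, SD, n = 7 each). The mean of BC058950 joined 1.18 with PSSM RNA in Cy3 and -0.95 in Cy5, each of which passed by itself in the opposite direction. Eif4g3 averaged 0.30 ± 0.26 on its probe with 7 horses, and a second probe had a single value of -2.63, in horse 44.

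A few more probes of this group were singled out after their values were seen. Eif4h, which stimulates the helicase, averaged 0.39 ± 0.24 (SD, n = 7, adjusted p = 0.0778), with horse 12 at -0.02 and the other horses between 0.21 and 0.60. It had the widest gap between the dyes among the 45 mouse translation factor probes tested for one, with 1.60 when PSSM RNA was in Cy3 and -0.82 in Cy5. Eif4b, another stimulator of the helicase, averaged 0.36 ± 0.40 (adjusted p = 0.206) with horse 12 at -0.48 and the other horses at 0.25 or above. Its mean was 1.09 with PSSM RNA in Cy3 and -0.38 in Cy5 (dye effect adjusted p = 0.000926). Eif4e2, a relative of the cap-binding protein, averaged 0.44 ± 0.52 (adjusted p = 0.211), with horse 44 at 1.54 and the others between -0.11 and 0.52. The probe of Eif4e itself had no value on any microarray.

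The EIF4E-binding repressors had 2 tested probes. Eif4ebp1 read 0.09, 0.23, 0.11, 0.40, 0.01, 0.44 and -0.17 in horses 5, 12, 32, 38, 42, 44 and 54, close to the pool in most horses. It averaged 0.16 ± 0.22 (SD, n = 7, adjusted p = 0.366) and Eif4ebp2 averaged 0.24 ± 0.23 (adjusted p = 0.206).

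Pabpc1, the main cytosolic polyA-binding protein, which links the tail of the messenger RNA to the cap complex, had the highest mean among the tested probes and was singled out for that. It read 1.55 in horse 5, 0.54 in horse 12, 0.72 in horse 32, -0.08 in horse 38, 0.58 in horse 42, 2.22 in horse 44 and 0.84 in horse 54. Horse 44 was the highest and horse 38 was level with the pool. The mean was 0.91 ± 0.75 (SD, n = 7), 1.88-fold higher in PSSM muscle, but it did not pass (adjusted p = 0.0918), and it was 1.52 with PSSM RNA in Cy3 and 0.30 in Cy5. On 1 of the 14 microarrays the pool gave its lowest signal. Pabpc4 averaged 0.21 ± 0.49.

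Among the elongation factors, 5 of 8 probes were tested and none passed, at a median of 0.06 (range -0.08 to 0.72). Eef1a2, the form of EEF1A in mature muscle fibers, read 0.44, 0.63, -0.16, 0.61, 0.88, 2.08 and 0.57 in horses 5, 12, 32, 38, 42, 44 and 54. Horse 44 lay far above the others and horse 32 lay below the pool. The mean was 0.72 ± 0.68 (SD, n = 7), 1.65-fold higher in PSSM muscle (adjusted p = 0.125), and nearly the same with PSSM RNA in Cy3 (0.76) and in Cy5 (0.67). Without horse 44 it was 0.49. Eef1g, a subunit of the EEF1B exchange factor singled out after its values were seen, read 0.49, -0.10, 0.45, 0.25, 0.67, 0.34 and 0.20, with only horse 12 below the pool, and averaged 0.33 ± 0.25 (adjusted p = 0.113). Eef2k, the kinase that inhibits EEF2, read -0.08, -0.15, -0.01, 0.33, -0.01, 0.01 and 0.35 and averaged 0.06 ± 0.20 (adjusted p = 0.71), with horses 38 and 54 apart from the rest. Eef2, the translocase, had values from 4 horses only (-0.48 in horse 5, 1.16 in horse 12, 0.48 in horse 32 and 0.78 in horse 44). No probe symbol matched Eef1a1.

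Probes of fibroblast markers were also highest in horse 44. The mean log2 ratio of the 5 tested fibroblast probes (Col1a1, Col1a2, Col3a1, Dcn and Lum, of 6 listed) was 1.10 in horse 5, 0.63 in horse 12, -0.03 in horse 32, 0.52 in horse 38, 0.76 in horse 42, 2.56 in horse 44 and 0.02 in horse 54. All 5 fibroblast probes had a mean above 0 (median 0.86), against 48.1% of all mouse probes. At an unadjusted p below 0.05, 4 were higher, against 8.56% of all, but none passed after adjustment. The list held mouse probes only, and the study reports LUM as significantly higher on its equine probe and by RT-PCR. Horse 44 was highest in Pabpc1, Eef1a2, Eif4a1 and Eif4e2 and in the fibroblast list, nearest to the pool in Eif2b1, and lowest in the mean of the skeletal muscle fiber markers (-0.34). In other factors it was the lowest horse, such as Eif2b3 (-0.62), Mtif2 (-0.49) and Pabpc4 (-0.43). Horse 5 came next in both Pabpc1 (1.55) and the fibroblast mean (1.10). Below these horses the order differed, as Pabpc1 was 0.84 in horse 54 and 0.72 in horse 32, where the fibroblast mean was near 0. The part of connective tissue and of muscle fibers in these values was not tested.

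**Figure D2:**
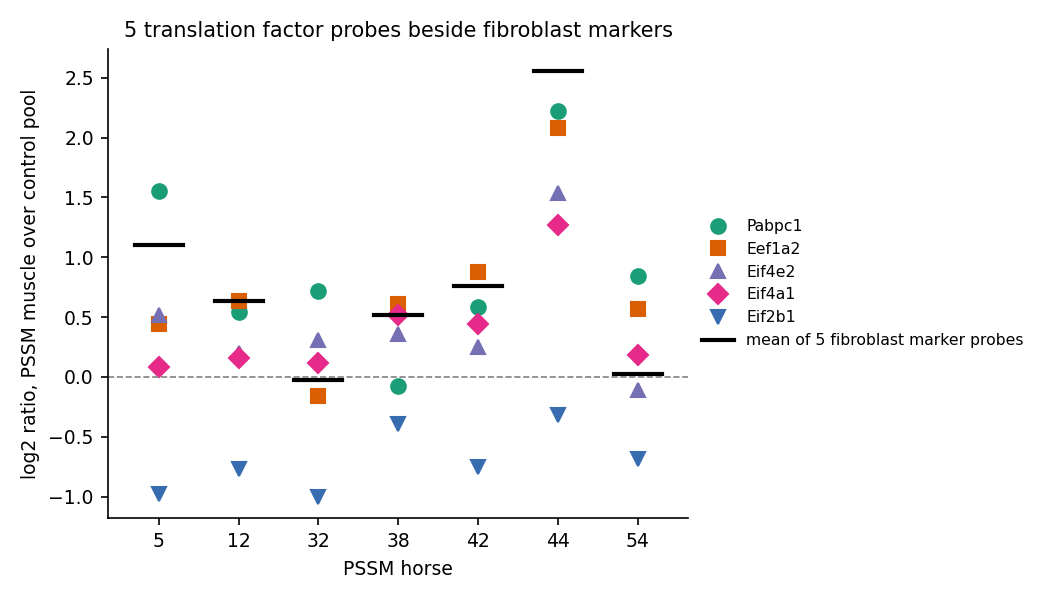
Log2 ratio of PSSM muscle over control pool (y axis) in each PSSM horse (x axis) for Pabpc1, Eef1a2, Eif4e2, Eif4a1 and Eif2b1 (symbols), with a black bar for the mean of the 5 fibroblast marker probes. In horse 44 the fibroblast mean reached 2.56 and Pabpc1 2.22, while Eif2b1 was below 0 in every horse.

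In the group of EIF1, EIF2 subunit, EIF5 and EIF6 symbols, 8 of 12 probes were tested and none passed (median 0.04, range -0.27 to 0.49). Most of these act in start codon selection, initiator tRNA delivery or subunit joining, and Eif5a and Eif5a2 were placed here by symbol only. Eif5b, the GTPase that joins the ribosomal subunits, read -0.08, -0.06, -0.23, -0.67, -0.18, -0.43 and -0.26 in horses 5, 12, 32, 38, 42, 44 and 54, below the pool in every horse and lowest in horse 38. It averaged -0.27 ± 0.21 (SD, n = 7), 1.21-fold lower in PSSM muscle, and did not pass (adjusted p = 0.141). Its second probe had values from 2 horses, 0.00 and 0.11. Eif5, which triggers GTP hydrolysis on EIF2, was read by 2 probes with means of 0.12 ± 0.23 (NM_173363) and 0.03 ± 0.14 (AF357387), 0.09 apart. The second is a probe of Eif5 by the platform annotation only, and whether it reads the messenger RNA was not tested. Eif6, which keeps the large subunit from joining too early and was singled out for its spread, was at 2.97 in horse 54 and between -0.21 and 0.38 in the other horses. The 2 microarrays of horse 54 gave 1.27 and 4.67, the second with PSSM RNA in Cy5. The mean of 0.49 ± 1.11 was 0.08 without horse 54. Eif2s1, the subunit of EIF2 that is phosphorylated under stress, had a single value of -1.40, in horse 54.

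Of the 3 EIF2 kinase probes only Eif2ak1, the heme-regulated kinase, was tested (-0.09 ± 0.12, SD, n = 7, adjusted p = 0.509). Eif2ak4, the kinase activated by amino acid shortage, had 0.62, 0.38, 0.26 and 0.09 in horses 5, 12, 42 and 54, where the pool gave its lowest signal on 3 of 5 microarrays. Eif2ak2 had no value. The release factors Etf1 and Gspt1 averaged 0.06 ± 0.27 and 0.00 ± 0.42. Members with values from 4 horses fell just outside the minimum of 5 horses and the tested ones had 6 or 7. Outside it lay Eef2, Eif2ak4, Eif5a2, Gspt2 and the second Eef1d probe, with horse values from -6.64 (Gspt2 in horse 54, at the lower limit) to 1.16. Inside it, Eif1b, Eif3h, the AK021370 probe of Eif4g2, Gfm2 and the mouse Tsfm probe had 6 horses, with horse values from -3.23 to 3.02, both of them of Gfm2.

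The mitochondrial factors were described apart. None of the 5 tested mouse probes passed, 1 of the 5 had a mean above 0, and their median was -0.01, whereas 36 of the 47 tested cytosolic probes (76.6%) had a mean above 0, with a median of 0.13. Among the mitochondrial means not above 0, Tufm (-0.004) and Gfm2 (-0.014) were level with the pool. After median centring they were 0.012 and 0.02. The difference between these groups was not tested. Tufm, the mitochondrial elongation factor Tu, read 0.13, 0.10, 0.07, -0.16, -0.16, -0.22 and 0.19 in horses 5, 12, 32, 38, 42, 44 and 54, on both sides of the pool, with a limma adjusted p of 0.982. It differed between the dyes (dye effect adjusted p = 0.00192), at 0.32 with PSSM RNA in Cy3 and -0.33 in Cy5. Mtif3, the mitochondrial initiation factor that prepares the small subunit, read -0.37, -0.40, -0.32, -0.55, -0.16, 0.19 and -0.15. Only horse 44 was above the pool. It averaged -0.25 ± 0.24 (SD, n = 7, adjusted p = 0.198). The mean was -0.41 with PSSM RNA in Cy3 and 0.10 in Cy5, where only 4 horses had a value, and horses 32, 38 and 54 were read in Cy3 alone.

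Mtif2, which brings the initiator tRNA in mitochondria, read -0.02, 0.39, -0.19, 0.09, 0.27, -0.49 and 0.75 in horses 5, 12, 32, 38, 42, 44 and 54. The horses fell on both sides of the pool and the mean was 0.11 ± 0.40 (SD, n = 7, adjusted p = 0.669). Tsfm, the exchange factor of Tufm, was the only gene read by probes of both species. Its equine probe (CX595432) read 0.11, -0.26, -0.10, -0.16, -0.31, -0.16 and -0.05, below the pool in 6 of 7 horses, and averaged -0.13 ± 0.14 (SD, n = 7). It did not pass among the 361 tested equine probes (adjusted p = 0.266), of which 4.43% were called higher and 19.9% lower. The median over equine probes lay below 0 on all 14 microarrays, and with that median subtracted the mean was -0.01. The mouse Tsfm probe read 0.07, -0.13, -0.04, -0.35, 0.00 and 0.14 in horses 5, 12, 38, 42, 44 and 54, with no value in horse 32. It averaged -0.05 ± 0.17 over 6 horses, 0.08 from the equine probe.

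Gfm2, a factor of mitochondrial ribosome recycling, was the least stable of the tested probes, at -3.23 in horse 12 and 3.02 in horse 54. These joined -6.64 and 6.04 on the Cy5 microarrays of these horses with 0.18 and 0.00 on their Cy3 microarrays, and the Cy5 microarray of horse 54 is the one that stood apart. In horses 5, 32, 38 and 42 it was between 0.00 and 0.14. On 5 of its 9 microarrays the pool gave its lowest signal and 1 value was at the lower limit, so that a ratio near 0 on the log2 scale can come from signals that are both at that level. The mean of -0.01 ± 1.98 (SD, n = 6) therefore gives no direction. Gfm1, the mitochondrial translocase, had no value.

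Over all tested mouse probes of the group, 37 of 52 (71.2%) had a mean above 0, against 48.1% of all tested mouse probes. The median was 0.11 against -0.01. At an unadjusted p below 0.05, 16 of the 52 were higher and 3 lower, set against the same 8.56% and 10.6%. Every horse measured was above 0 for 6 probes (3.93% of all mouse probes) and every horse was below 0 for 2 (6% of all). Probes of 1 complex are not independent measurements, and these counts describe the group and were not tested.

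The shift was seen in each horse. In horse 5 the median over the translation factor probes was 0.13 against -0.01 over all mouse probes, in horse 12 it was 0.04 against -0.03 and in horse 32 it was 0.11 against -0.01. Horse 38 gave 0.19 against 0.03, horse 42 gave 0.15 against 0.02, horse 44 gave 0.19 against 0.00 and horse 54 gave 0.09 against -0.03. The factor median was above that of all probes in all 7 horses, which share the control pool. In each horse 57.7% to 73.1% of the factor probes were above 0, against 45.6% to 53.6% of all probes.

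**Figure D3:**
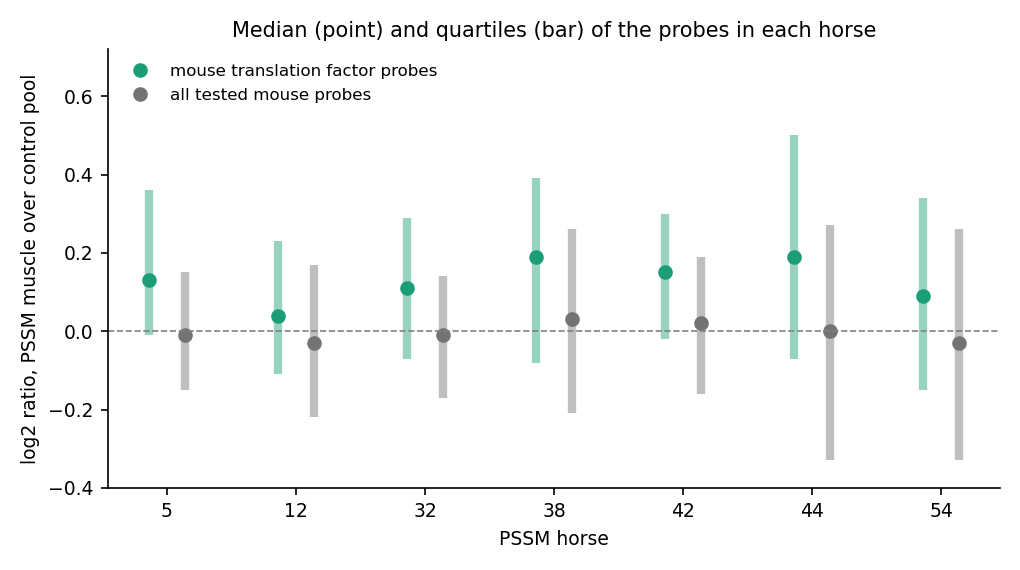
Median (points) and quartiles (bars) of the log2 ratio of PSSM muscle over control pool (y axis) in each PSSM horse (x axis), for the mouse translation factor probes (green, left) and all tested mouse probes (gray, right). The factor median is the higher of the pair in all 7 horses, from 0.04 in horse 12 to 0.19 in horses 38 and 44, and the quartile bars overlap.

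The shift differed between the dyes. With PSSM RNA in Cy3 the median over the 52 mouse factor probes was 0.17, and with PSSM RNA in Cy5 it was 0.01, against -0.01 and 0.00 over all mouse probes. With PSSM RNA in Cy3 alone, 17 of 51 probes were called higher and 2 lower, where 11.2% and 10.1% of all mouse probes were. With PSSM RNA in Cy5 alone, 4 of 45 were called higher and 6 lower, where 5.7% and 10.7% of all were. No factor probe was called higher in both orientations, and Eif2b1 alone was called lower in both.

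The means of both orientations had the same sign in 21 of the 52 factor probes, against 41.3% of all mouse probes. They were both above 0 in 17 factor probes (32.7%, against 19.7% of all), and 21 (40.4%, against 28.8% of all) were above 0 with PSSM RNA in Cy3 and below 0 in Cy5. A dye effect passed in 22 of 45 tested factor probes, 17 of them higher with PSSM RNA in Cy3 and 5 in Cy5. Of all mouse probes 38.5% had such an effect, 21.2% higher with PSSM RNA in Cy3 and 17.4% in Cy5. Averaging the dye-swapped pair removes a dye effect that is equal in both.

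**Figure D4:**
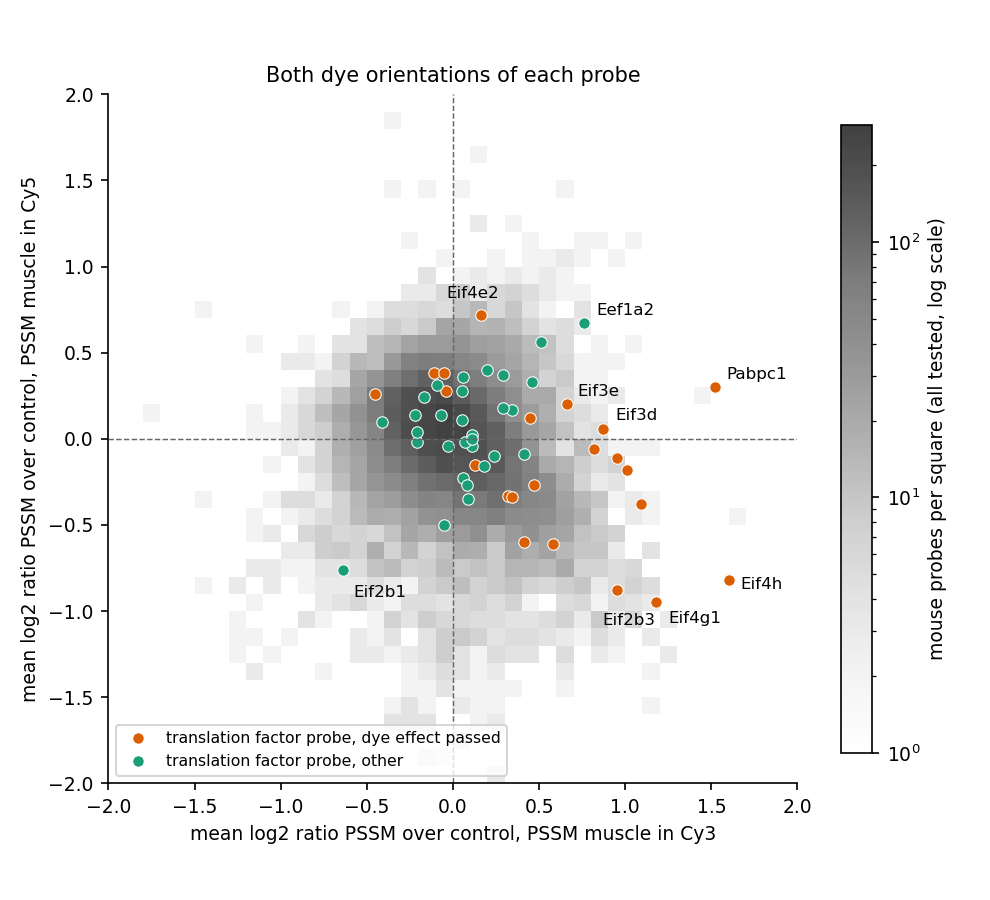
Mean log2 ratio of PSSM muscle over control pool with PSSM RNA in Cy3 (x axis) and in Cy5 (y axis) for the 52 mouse translation factor probes (orange where a dye effect passed, green elsewhere), over the number of all tested mouse probes per square (gray, log scale). Eif2b1 lies below 0 on both axes, Eef1a2 above 0 on both, and Eif4h (1.60 and -0.82) and the BC058950 probe of Eif4g1 (1.18 and -0.95) far to the lower right.

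**Figure D5:**
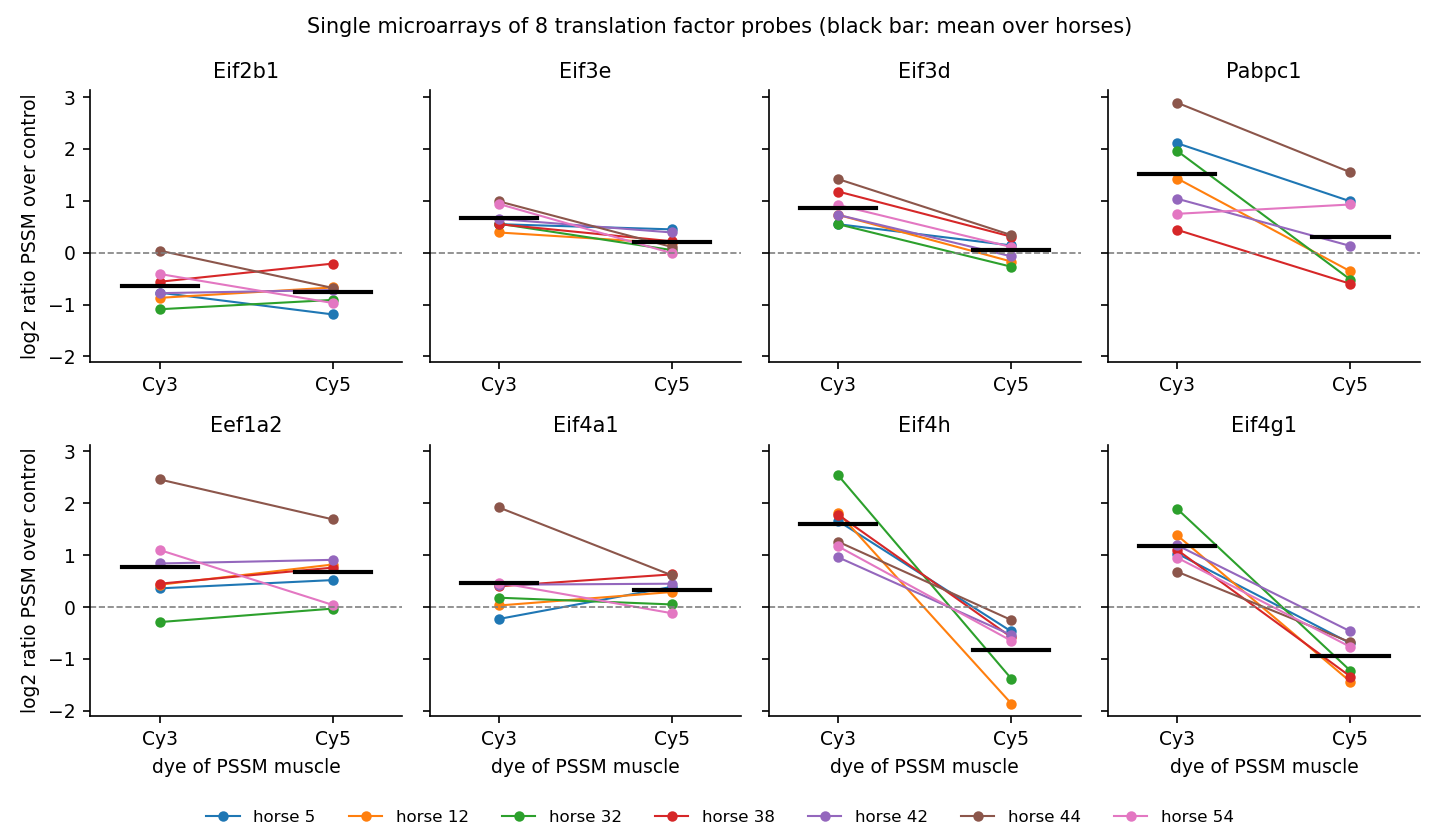
Log2 ratio of PSSM muscle over control pool (y axis) on each single microarray, with PSSM RNA in Cy3 (left) or Cy5 (right), for 8 translation factor probes. A line joins the 2 microarrays of a horse and a black bar is the mean over horses. The lines of Eif2b1 and Eef1a2 stay on 1 side of 0 in most horses, and all lines of Eif4h and of the BC058950 probe of Eif4g1 cross it.

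The pathways that control these factors were read from listed genes on mouse probes only, and no mouse probe of these pathway lists passed the test. In the list of mTOR and MNK signaling, 17 of 22 probes were tested (median 0.03), with 1 higher and 2 lower at an unadjusted p below 0.05, near the 8.56% and 10.6% of all mouse probes. Its largest value was 0.46 ± 0.31 (SD, n = 7, adjusted p = 0.0765) on 1 probe of Rps6kb1, the kinase of ribosomal protein S6, whose other 2 probes averaged 0.00 and -0.15. Akt2, a kinase upstream of mTOR, averaged -0.34 ± 0.25 (adjusted p = 0.113). In the list of the integrated stress response, which follows EIF2 phosphorylation, 8 of 14 probes were tested (median -0.02). Atf4, its central transcription factor, averaged -0.27 ± 1.51 (adjusted p = 0.776), and was above the pool in 5 of 7 horses, with the lowest horse at -3.66 and 1 array value at the lower limit, so that the mean gives no direction. Cebpb, a transcription factor of the same list, was below the pool in all 7 horses, from -0.60 to -0.18, and averaged -0.36 ± 0.16 (adjusted p = 0.0532). The study reports its equine CEBPB probe, which is not in this list, as significantly lower.

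Of the mitochondrial aminoacyl-tRNA synthetases, which charge the tRNAs, 11 of 18 probes were tested (median 0.05, range -0.57 to 0.21), with 1 higher and 2 lower at an unadjusted p below 0.05, against the same 8.56% and 10.6%. In a further list of mitochondrial gene expression, 7 of 12 probes were tested (median -0.06, range -0.45 to 0.19), of which only Mtrf1 is a release factor (-0.06). The others were Tfam, Tfb1m, Tfb2m and Polrmt, which act in transcription, Lrpprc, which stabilizes messenger RNA, and Trmu, which modifies tRNA. The cytosolic synthetase list had 2 probes, at -0.50 and 0.50.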

How the data were processed

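The authors scanned 14 two-color microarrays of gluteus medius muscle RNA, quantified them with GenePix Pro 6.0, normalized each spot and array by Lowess in GeneSpring and deposited a log ratio. The deposited values were read as the natural log of Cy5 over Cy3, a base that no source states and that was inferred from the ends of the columns, on which every fold change here depends. The background correction and the rule for empty cells are not given in the sources used here. The number of arrays limits the precision. Arrays with PSSM muscle in Cy3 were turned, values were converted to log2 and the arrays of a horse were averaged. A probe needed values from 5 or more horses, and its horse means were fitted against 0 in limma 3.58.1 (R 4.3.3). The p-values were adjusted by Benjamini-Hochberg, separately for 13067 mouse and 361 equine probes. A second limma fit, on the within-horse difference of the swapped arrays, gave the dye effect. A control signal at its lowest level was recognized where 10 times the linear ratio was a whole number within 0.0002. The alternative without values at the lowest signal left out these values and ratios at the lower limit. A lowest PSSM signal by itself was not looked for. The script was tested on simulated data.

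Symbols come from the platform annotation, in which 13430 of 24109 mouse probes carry 1 symbol. The annotation is old, gives no position in a genome build used here, and no probe sequence was used. Probes of a gene were kept apart. Members, gene lists and markers were chosen with earlier results of these data known. The gene lists and markers were read from mouse probes only. Named with the value of every horse or described singly are probes that passed, the 8 highest and 8 lowest among those with 1 sign in every horse measured and values from at least 6 horses (8 in all), every tested mitochondrial factor, genes with several probes, and a few key factors. Another 10 probes were singled out after their values were seen. As alternatives, the t-test of the methods, robust limma, a block model of the single arrays (horse as random block, with a dye term, statmod 1.5.0), each dye orientation, median centring, other minimums of horses or arrays, adjustment over all probes, leaving out values at the lowest signal or each horse, and the mean of linear ratios were run. Leaving out the Cy5 array of horse 54 was added after the data were seen. Other steps used pandas 2.3.3, scipy 1.17.1, numpy 2.4.6 and matplotlib 3.10.9 under Python 3.11.15.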

Additional observations from a re-analysis of the deposited data

Results flagged for a closer look

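In 4 of the 32 probes described singly, 1 horse lay far from the other 6 by Dixon's criterion, which chance alone meets in about 1 of 20 groups. Of these, 3 were singled out after their values were seen, partly for this. Eif4a1 was at 1.27 in horse 44, and Eif4e2 was at 1.54 in the same horse, in which the fibroblast markers were also highest. Eif4b was at -0.48 in horse 12. Eif6 was at 2.97 in horse 54, the mean of 1.27 with PSSM RNA in Cy3 and 4.67 on the Cy5 microarray of that horse, which stood apart over all probes.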

How the results depend on the processing

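Of 617 values of the 32 singly described probes under the alternatives, 545 were counted as unchanged in direction and side of the threshold, and 34 changed sign. In an unchanged direction, 34 passed only under the alternative and 4 no longer passed. The 545 include 32 means of linear ratios, which have no test and of which a few differed in sign. Some values that changed sign also passed. These were Eif2b3, Eif4h and the BC058950 probe of Eif4g1 with PSSM RNA in Cy5 alone, and Tufm with it in Cy3 alone. No called probe changed sign. Eif2b1 was called lower in every alternative with a test except the t-test of the methods, and Eif3e was called higher in all but PSSM RNA in Cy5 alone and without horse 38 or horse 42. The cause of these changes was not tested.

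The number of translation factor probes called higher, 1 here, was 6 with robust limma (1.69% of all mouse probes higher), 6 in a block model of the single arrays (horse as block, with a dye term) (2.62%) and 6 with values on all arrays (2.21%). It was 17 with PSSM RNA in Cy3, 4 in Cy5, 2 with a minimum of 7 horses (1.28%), 2 without values at the lowest signal (1.06%), 3 without the Cy5 array of horse 54 (0.82%), and 0 to 2 on leaving out each horse. Leaving aside the single dye orientations, Eif3d, Pabpc1, Eef1a2, Eif4a2 and Eif4b were each gained in at least 2 alternatives. It was 0 without horse 38 or 42 (0.0551% and 0.165% of all mouse probes higher) and 2 without horse 12 (0.109%). The number called lower, 1 here, was 0 in the t-test of the methods (0.49%), 2 with PSSM RNA in Cy3 and 6 in Cy5.

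Over all mouse probes, 237 passed here, against 75 in the t-test of the methods, 599 with robust limma, 899 in the block model, 2680 with PSSM RNA in Cy3, 1575 in Cy5, 382 with values on all arrays, 406 and 134 with a minimum of 7 and 3 horses, 477 without values at the lowest signal, and 83 to 290 on leaving out each horse. Of the equine probes 88 passed, against 170 with PSSM RNA in Cy3, 43 adjusted over all probes, and 59 to 93 otherwise without 1 horse or the added array.

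The equine Tsfm probe was -0.009 after centring. Changes of sign were in probes that did not pass here. With PSSM RNA in Cy5 alone the mean was -0.045 for Eef2k, -0.18 for Eif2b2, -0.88 for Eif2b3, -0.27 for Eif2b4, -0.10 for Eif2b5, -0.056 for Eif4a2, -0.38 for Eif4b, -0.093 for Eif4ebp1, -0.95 for the BC058950 probe of Eif4g1, -0.11 for the NM_013507 probe of Eif4g2, -0.82 for Eif4h and -0.16 for Mtif2. With PSSM RNA in Cy3 alone it was 0.086 for the AK053144 probe of Eif4g1, -0.169 and -0.039 for the AF357387 and NM_173363 probes of Eif5, 0.083 for Gfm2, 0.001 for the equine Tsfm probe and 0.32 for Tufm. The AK021370 probe of Eif4g2 was 0.044 with robust limma and 0.034 in the block model. Gfm2 was 0.033 with robust limma and 0.02 after centring, and Tufm was 0.012 after centring and 0.018 without the Cy5 array of horse 54. As the mean of linear ratios, Gfm2 was 1.037, the AK021370 probe of Eif4g2 was 0.035 and Tufm was 0.004. These were not counted among the changes of sign. Leaving out each horse gave -0.021 to 0.148 for Eif2b3, -0.089 to 0.028 for Eif4g1 (AK053144), -0.16 to 0.15 for Eif4g2 (AK021370), -0.62 to 0.63 for Gfm2, -0.090 to 0.007 for the mouse Tsfm probe and -0.038 to 0.031 for Tufm.

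Empty cells, values with the pool at its lowest signal, and 1 pooled control limit these values. The spread between control horses is in no error, 19 of 72 probes were not tested, and mouse probes on horse RNA need not read every transcript. No pairing of PSSM horses with control horses was possible because the series has a single group of horses against 1 pool.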
